A study of Mus musculus with 8 samples.

Results

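Oxidative phosphorylation in the inner mitochondrial membrane passes electrons from succinate (through complex II) and from NADH (through complex I) to complex III, from there by way of cytochrome c to complex IV, which reduces oxygen, and the resulting proton gradient drives ATP synthesis by complex V. Complex II, succinate dehydrogenase, is encoded in the nucleus only, whereas complexes III, IV and V combine nuclear subunits with subunits encoded by mitochondrial DNA. The nuclear genes of these complexes, the respiratory chain and ATP synthase subunits outside complex I, are described here in microglia of the spinal cord, the macrophages that reside in nervous tissue. A gene was a member if it was protein-coding in the GENCODE annotation of mm10 and its symbol was Sdha, Sdhb, Sdhc, Sdhd or Cyc1 or began with Uqcr, Cox4i, Cox5, Cox6, Cox7, Cox8 or Atp5. This took 49 of the 54532 genes in the count table: 4 of complex II, 9 of complex III, 18 of complex IV and 18 of complex V. A further 8 symbols that fit the prefixes were not protein-coding and were left out.

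The subject of the series is P2X4, a cation channel gated by ATP outside the cell, in autoimmune inflammation of nervous tissue. It holds 8 RNA sequencing libraries, each from the spinal cord of 1 female mouse. In 4 of them the mouse carried the knock-in allele that the labels call Cd11b-P2X4mCherryIN KI (mice 513, 526, 528 and 549, here KI), and in 4 the mouse was wild type (mice 503, 504, 506 and 527, here WT). The allele's name joins CD11b, a surface protein of myeloid cells, to P2X4 and the red fluorescent protein mCherry. How the allele was built, which promoter drives it and whether other cells carry it are not given in the sources used here, nor are age, treatment or batch. The cells of both groups were sorted alive as CD11b positive, CD45 low and Ly6C negative.

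The libraries held 45167483 to 54049801 reads on genes, so a count of 0 allows up to 3 reads, or 0.0555 to 0.0664 CPM (counts relative to the library's total). P2rx4, the gene of P2X4, had 859 ± 62.7 CPM in KI and 793 ± 43.5 CPM in WT (SD, n = 4 each; edgeR quasi-likelihood adjusted p = 0.735), and these counts do not tell the inserted sequence from the native gene. The 10 microglial markers summed to 32452 to 36651 CPM in KI libraries and 33833 to 38661 CPM in WT libraries. Of the 10, 4 had log2 fold changes above 0, and 4 had an unadjusted p under 0.05. Over all genes tested these shares were 50.1% and 7.79%. The overlap of the sums therefore does not show that the sorted cells were alike in both groups, and this was not tested. Markers of 10 other cell types, from neurons to muscle, summed to at most 524 CPM per list in any library, and every list overlapped between the groups. Erythroid markers summed to 96.6 to 307 CPM in KI and 160 to 524 CPM in WT, with none of the 6 tested genes above a log2 fold change of 0 and 3 at an unadjusted p under 0.05, and their part in the results was not tested. The 37 mitochondrial genes listed in the table, 13 of them protein-coding, held 0 reads in all 8 libraries, so the mitochondrially encoded partners of these subunits were not measured here.

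CPM values use library sizes scaled by TMM, which assumes that most genes do not differ between libraries. A log2 fold change above 0 means a higher value in KI than in WT. In bulk RNA, a lower share of cells that hold a transcript and less of it per cell cannot be told apart. Of the 49 members, 44 passed the filter on low counts and were tested with edgeR: all of complexes II and III, 14 of 18 in complex IV and 17 of 18 in complex V. The 5 others were Cox4i2, Cox7b2, Cox8b, Cox8c and a second gene model named Atp5o, which held 0 reads in all libraries. That model shares 100% of its exon bases with other genes, so its 0 reads do not measure its expression.

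Nuclear respiratory genes are known in mammals as targets of the transcription factors NRF1 and GABPA. RefSeq promoter windows on GRCm38.p6, from 250 bases before to 50 bases after the gene start, were found for 36 of the 49 members (39 windows). The NRF1 letters (GCGC, any base, then TGCGC), searched like the others on both strands, stood in 10 of the 39 windows (25.6%), against 4.60% of all 32851 windows and 9.49% of the 13527 windows of tested genes. The GABPA letters CCGGAAG stood in 12 windows (30.8%), against 8.86% and 17.0%. The YY1 letters AAGATGGC stood in 3 windows (7.69%, against 2.75% and 4.30%) and the letters TNAAGGTCA of the oestrogen-related receptors in 2 (5.13%, against 1.28% and 0.776%). In 4 windows, those of Sdhd, Atp5k, Cox6a1 and Atp5h, the NRF1 and GABPA letters stood together, and no matched bases overlapped between any of the 4 motifs. Member windows were no richer in G and C (median 56.3%) than those of tested genes (60.0%).

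The stretches below show, in capitals, the first match to the NRF1 letters or their reverse complement, with 10 bases on either side, on the strand of the gene. The first 4 are those of the members in which every KI library lay above every WT library, and Sdha and Cox6a1 are set beside them because they hold the same letters with log2 fold changes of 0.03 and 0.00.
Uqcrc1, chr9:108936643-108936672, plus strand: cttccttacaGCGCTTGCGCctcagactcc
Sdhd, chr9:50603909-50603938, minus strand: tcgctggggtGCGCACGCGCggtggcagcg
Atp5k, chr5:108434430-108434459, minus strand: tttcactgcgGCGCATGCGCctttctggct
Atp5o, chr16:91931602-91931631, minus strand: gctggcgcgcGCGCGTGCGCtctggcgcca
Sdha, chr13:74350319-74350348, minus strand: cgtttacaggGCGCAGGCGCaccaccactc
Cox6a1, chr5:115349101-115349130, minus strand: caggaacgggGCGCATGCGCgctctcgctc
The capitals begin at position 5 of Uqcrc1 and 9 of Atp5o, counted with the RefSeq start as 0, and before the start in the others, at position -79 in Sdhd, -50 in Atp5k, -98 in Sdha and -162 in Cox6a1. The other members with these letters were Atp5c1, Atp5g2, Atp5g3 and Atp5h. Although the 4 separated members all held the letters, the median log2 fold change of the 10 members with them was 0.08, and that of the 24 tested members with a window and without them was 0.12. A match of letters is a description of the sequence and says nothing of binding in these cells.

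No member differed between KI and WT after adjustment over all genes by edgeR's quasi-likelihood test, and neither did any other gene. Of 17291 genes tested, 0 (0%) had an adjusted p under 0.05, and the smallest adjusted p among members was 0.507. By unadjusted p under 0.05, 1347 genes (7.79%) passed, 559 of them higher in KI (3.23%) and 788 lower (4.56%). Among the members, 5 of 44 (11.4%) passed, all with higher values in KI: Sdhb, Sdhd, Uqcrc1, Cox6a2 and Atp5k. None of the 44 passed in the lower direction. Every KI library lay above every WT library for 405 of all genes (2.34%) and below for 450 (2.6%), and for 4 of the 44 members above and 0 below. DESeq2 called 248 of 19637 genes (1.26%), 75 of them higher in KI (0.382%), and among them 1 member, Uqcrc1; an edgeR likelihood ratio test called 42 of all genes (0.243%) and no member, and limma-voom called none of either.

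The members leaned to higher values in KI by a small amount. The log2 fold change was above 0 in 37 of 44 members, against 50.1% of all genes, and its median was 0.10, or 7.10% higher in KI, against 0.00 over all genes. It ran from -0.86 for Cox7a1, which had few reads, to 0.45 for Cox6a2. For 39 of the 44 members the whole 95% interval stayed inside a 1.5-fold difference in either direction, as it did for 38.6% of all genes. On simulated counts of the same depth, the test recovered 24% of genes changed 1.5-fold and 69% of those changed 2-fold. Smaller changes were not simulated. The changed genes were drawn from all tested genes above 5 CPM, not from the members. The median SE of the log2 fold change was 0.10 over the members and 0.24 over all genes. The recovered shares are therefore not those of the members.

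**Figure D1:**
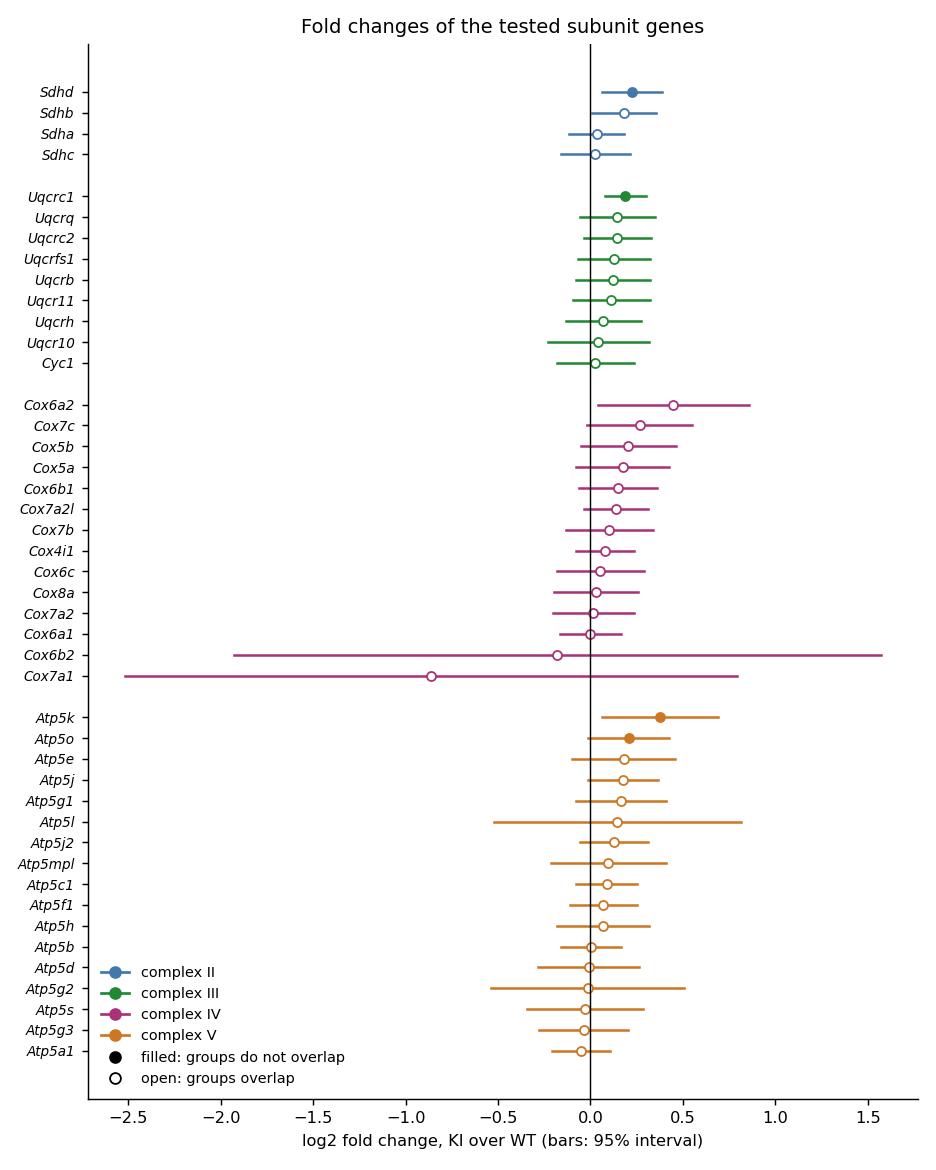
Log2 fold change (KI over WT, x axis) of the 44 tested subunit genes with its 95% interval, grouped by complex and ordered by size within each. Filled points mark the 4 genes whose groups do not overlap (Sdhd, Uqcrc1, Atp5k, Atp5o); 37 points lie right of 0, and the widest intervals belong to the low genes Cox7a1 and Cox6b2.

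The lean was not spread evenly over the libraries. The library of WT mouse 506 was the lowest of the 8 for 20 of the 44 members, while it was the lowest for 11.6% of all genes tested. The library of KI mouse 526 was the highest for 14 members, against 11.8% of all genes. Together, the lowest value stood in a KI library for 7 members and in a WT library for 37, and the highest in a KI library for 32 and in a WT library for 12. Over all genes tested, the lowest value stood in a KI library for 53.3% and the highest for 51.8%. Without WT 506 the median log2 fold change of the members was 0.08, and 2 members (Sdhd and Uqcrc1) passed an unadjusted p under 0.05. Without KI 526 the median was 0.09 and the same 2 members passed, and without WT 504 the median was 0.11 and 3 passed, Atp5k being the third.

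Complex II oxidises succinate to fumarate and links the citric acid cycle to the respiratory chain. All 4 of its genes had log2 fold changes above 0, with a median of 0.11 and a range from 0.03 to 0.22. Sdhd encodes one of the membrane anchors. It had 141.2, 163, 156 and 155 CPM in KI mice 513, 526, 528 and 549, against 131, 140.5, 134 and 121 CPM in WT mice 503, 504, 506 and 527. Every KI value lay above every WT value, with KI 513 and WT 504 less than 1 CPM apart. The log2 fold change was 0.22 ± 0.07 (SE; unadjusted p = 0.0118, edgeR adjusted p = 0.554).

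Sdhb, the iron-sulphur subunit, had 252, 289, 302 and 272 CPM in KI and 260, 234, 226 and 263 CPM in WT. KI 513 lay among the WT values, and the log2 fold change was 0.18 ± 0.08 (SE; unadjusted p = 0.0421, edgeR adjusted p = 0.626). Sdha, the flavoprotein that holds the succinate site, had 362, 352, 334 and 317 CPM in KI and 323, 364, 317 and 330 CPM in WT, with a log2 fold change of 0.03 and a 95% interval from -0.11 to 0.18. Sdhc, the other anchor, averaged 55.0 ± 1.72 CPM in KI and 54.0 ± 3.35 CPM in WT, a log2 fold change of 0.03 (SD, n = 4 each). The 95% intervals of the anchors overlap (0.06 to 0.39 for Sdhd, -0.16 to 0.21 for Sdhc), and the difference between them was not tested.

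Complex III takes electrons from ubiquinol to cytochrome c. Its 9 nuclear genes all had log2 fold changes above 0, between 0.03 and 0.19 with a median of 0.12. With GC and length trends removed Uqcrb was at -0.02. With 1 library left out, Uqcr10 fell as low as -0.05 and Cyc1 as low as -0.04. Uqcrc1 encodes a core protein on the matrix side. It had 497, 526, 541 and 519 CPM in KI and 459, 445, 456 and 468 CPM in WT, and no KI library overlapped a WT library. Its log2 fold change of 0.19 ± 0.05 (SE) gave the smallest unadjusted p among the members, 0.00368, with an edgeR adjusted p of 0.507. DESeq2 called it at an adjusted p of 0.00631, while over the other alternatives the adjusted p ran from 0.345 to 0.864.

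Uqcrc2, the other core protein, had 106, 108, 117 and 125 CPM in KI and 101, 99.0, 99.0 and 114 CPM in WT, a log2 fold change of 0.14. The WT 527 library alone put the groups in overlap. The exons of Uqcrc2 share 19.7% of their bases with Pdzd9 on the opposite strand, and counting used no strand option. The Rieske iron-sulphur protein Uqcrfs1 averaged 94.7 ± 7.70 CPM in KI and 86.8 ± 6.54 CPM in WT, a log2 fold change of 0.13. Cytochrome c1 (Cyc1), which hands the electron on, averaged 92.7 ± 10.2 CPM in KI and 91.0 ± 5.81 CPM in WT, a log2 fold change of 0.03 (SD, n = 4 each).

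The small subunits of complex III without redox centres lay between these. Uqcrq averaged 77.5 ± 5.30 CPM in KI and 70.1 ± 6.48 CPM in WT, and Uqcrb averaged 41.5 ± 1.76 CPM in KI and 38.2 ± 1.86 CPM in WT (SD, n = 4 each), log2 fold changes of 0.15 and 0.12. Their edgeR adjusted p were 0.770 and 0.811. Uqcr11, Uqcrh (the hinge protein) and Uqcr10 had log2 fold changes of 0.11, 0.07 and 0.04.

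**Figure D2:**
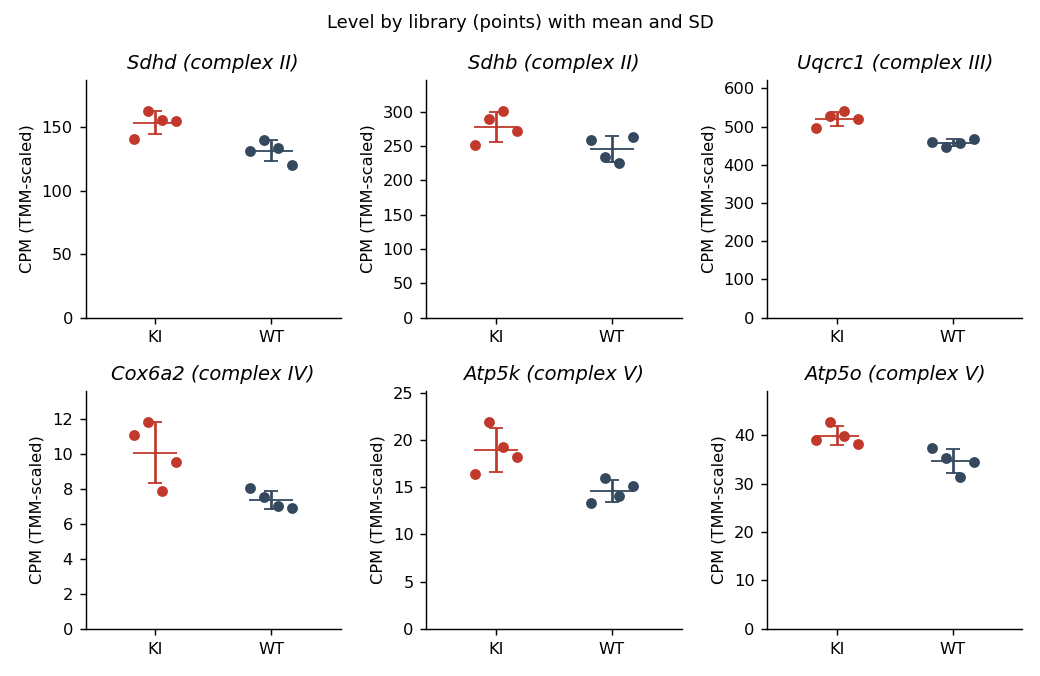
CPM (TMM-scaled, y axis from 0) of 6 subunit genes in each library, KI left and WT right, with the mean and SD of 4 libraries as bars. The points of Sdhd, Uqcrc1, Atp5k and Atp5o do not overlap between groups, and those of Sdhb and Cox6a2 do.

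Complex IV, cytochrome c oxidase, surrounds a mitochondrially encoded core with nuclear subunits, several of which exist as a widely expressed and a tissue-restricted form. Of its 14 tested genes, 12 had log2 fold changes above 0, with a median of 0.09, and no gene separated the groups. The median rested on single libraries more than in the other complexes: it was 0.04 without WT 506 and 0.15 without WT 503. Cox6a2, the form of the subunit known from heart and skeletal muscle, had 11.1, 11.8, 7.88 and 9.57 CPM in KI and 8.06, 7.56, 7.03 and 6.92 CPM in WT. KI 528 alone lay among the WT values, and the log2 fold change of 0.45 ± 0.19 (SE; unadjusted p = 0.0349, edgeR adjusted p = 0.609) was the highest of all members. Its exons share 10.3% of their bases with Itgad, a myeloid integrin gene on the opposite strand.

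The widely expressed partner, Cox6a1, averaged 79.9 ± 3.50 CPM in KI and 79.9 ± 3.78 CPM in WT, with a log2 fold change of 0.00 and a 95% interval from -0.16 to 0.17; its sign turned with total counts only and under several other settings. As a share of both forms per exon length, Cox6a2 made up 12.6%, 13.9%, 9.22% and 10.5% in KI and 9.14%, 8.61%, 8.85% and 8.27% in WT. Every KI share lay above every WT share, but only just, with KI 528 at 9.22% and WT 503 at 9.14%. The means were 11.5 ± 2.09% in KI and 8.72 ± 0.368% in WT (SD, n = 4 each). The level of Cox6a2 itself overlapped between the groups, and the shares within the other isoform families did not separate them. The difference in share was not tested. The muscle markers summed to 2.15 to 4.37 CPM in KI and 1.92 to 3.99 CPM in WT, so they lay in the same range in both groups.

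The other restricted forms were near the floor. Cox7a1, the muscle form, had 0.0447, 0.226, 0.200 and 0.223 CPM in KI and 0.513, 0.215, 0.443 and 0.0992 CPM in WT, from 35 reads in KI and 65 in WT. Its log2 fold change of -0.86 had a 95% interval from -2.52 to 0.80. Cox6b2, a form known from testis, had 126 reads in KI and 154 in WT, and 102 of the WT reads came from mouse 503; its log2 fold change was -0.18 with all libraries and 0.86 without WT 503. Cox4i2, known from lung, had 39, 0, 30 and 3 reads in KI and 6, 0, 9 and 6 reads in WT, which the edgeR filter left out; DESeq2, which filters differently, gave it an adjusted p of 0.712. Cox7b2 had 0 reads in KI and 2 in WT, Cox8b had 3 in KI and 0 in WT, and Cox8c had 2 in KI and 0 in WT.

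Apart from Cox6a2, the restricted forms held under 1% of their families on average. Cox4i1 held 99.5 ± 0.519% of its pair in KI and 99.9 ± 0.104% in WT, and Cox6b1 held 99.5 ± 0.267% in KI and 99.5 ± 0.514% in WT. Cox7b and Cox8a held at least 99.9% of theirs on average in both groups. In the Cox7a family the share belonged mostly to Cox7a2l, a relative known from the joining of complexes III and IV into supercomplexes, at 74.4 ± 0.614% in KI and 72.6 ± 2.01% in WT. Cox7a2 held 25.4 ± 0.604% in KI and 27.0 ± 1.79% in WT, and Cox7a1 held 0.204 ± 0.106% in KI and 0.395 ± 0.239% in WT (SD, n = 4 each).

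The main forms of complex IV mostly lay a little higher in KI, and none passed. Cox7c had 28.6, 30.5, 26.9 and 23.6 CPM in KI and 19.8, 22.8, 23.7 and 24.8 CPM in WT, a log2 fold change of 0.27 (unadjusted p = 0.0621, edgeR adjusted p = 0.673), with KI 549 inside the WT range. Cox5b, which binds zinc, averaged 29.5 ± 3.01 CPM in KI and 25.6 ± 1.58 CPM in WT, a log2 fold change of 0.20. Cox7a2l averaged 138 ± 9.47 CPM in KI and 126 ± 8.34 CPM in WT, and Cox6b1 averaged 89.8 ± 6.18 CPM in KI and 81.0 ± 8.74 CPM in WT (SD, n = 4 each), log2 fold changes of 0.14 and 0.15. Cox5a, Cox7b, Cox4i1, Cox6c, Cox8a and Cox7a2 had log2 fold changes of 0.17, 0.10, 0.08, 0.05, 0.03 and 0.02.

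Complex V, the ATP synthase, couples a rotary motor in the membrane to a catalytic head in the matrix. Of its 17 tested genes, 12 had log2 fold changes above 0, with a median of 0.09 and a range from -0.05 to 0.37; the median was 0.06 without WT 504. The sectors of the enzyme are given in turn. The 5 genes of the catalytic head and its central stalk (Atp5a1, Atp5b, Atp5c1, Atp5d, Atp5e) had a median of 0.00, with 3 above 0. The 4 of the peripheral stalk (Atp5o, Atp5f1, Atp5h, Atp5j) and the 4 small membrane subunits (Atp5k, Atp5j2, Atp5l, Atp5mpl) were all above 0, with medians of 0.12 and 0.14. These medians describe the sectors and were not tested against each other.

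In the head, Atp5a1, the alpha subunit, averaged 231 ± 8.62 CPM in KI and 239 ± 19.3 CPM in WT, and Atp5b, the beta subunit with the catalytic sites, averaged 238 ± 14.5 CPM in KI and 237 ± 17.3 CPM in WT (SD, n = 4 each). Their log2 fold changes were -0.05 and 0.00, with 95% intervals from -0.21 to 0.11 and from -0.16 to 0.16. Atp5c1, the gamma subunit that turns in the head, averaged 168 ± 8.18 CPM in KI and 158 ± 12.7 CPM in WT, a log2 fold change of 0.09. Atp5d and Atp5e, the other stalk genes, had log2 fold changes of -0.01 and 0.18.

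Among the membrane subunits, Atp5k, known from the dimer contacts of the enzyme, had 16.3, 21.9, 19.3 and 18.2 CPM in KI and 13.3, 16.0, 14.1 and 15.1 CPM in WT. The groups did not overlap, the lowest KI library (513) standing just above the highest WT library (504). The log2 fold change was 0.37 ± 0.14 (SE; unadjusted p = 0.0240, edgeR adjusted p = 0.598). Atp5j2 averaged 60.5 ± 3.67 CPM in KI and 55.4 ± 2.15 CPM in WT, a log2 fold change of 0.13, and Atp5l, at 10.4 ± 3.16 CPM in KI and 9.44 ± 3.43 CPM in WT, varied too much between libraries for an interval narrower than -0.52 to 0.81. Atp5mpl had a log2 fold change of 0.10.

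In the peripheral stalk, Atp5o, the subunit at its tip that confers sensitivity to oligomycin, had 39.0, 42.7, 39.8 and 38.2 CPM in KI and 37.4, 35.2, 31.3 and 34.5 CPM in WT. No KI value reached down to a WT value, though the log2 fold change of 0.21 ± 0.10 (SE) had an unadjusted p of 0.0608 and an edgeR adjusted p of 0.670. Atp5j averaged 82.2 ± 4.55 CPM in KI and 72.8 ± 6.11 CPM in WT (SD, n = 4 each), a log2 fold change of 0.18 (unadjusted p = 0.0671, edgeR adjusted p = 0.678). Its exons share 12.7% of their bases with Gabpa, the gene of one of the factors named above, on the opposite strand. Atp5f1 and Atp5h had log2 fold changes of 0.07 and 0.07. Atp5s, a coupling factor outside these sectors, averaged 17.8 ± 2.68 CPM in KI and 18.2 ± 0.607 CPM in WT, a log2 fold change of -0.03.

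Subunit c, which forms the rotating ring, is encoded by Atp5g1, Atp5g2 and Atp5g3, whose mature proteins are the same. Per exon length, Atp5g3 supplied 69.0 ± 1.73% of the 3 in KI and 71.1 ± 3.03% in WT. Atp5g1 supplied 22.7 ± 1.37% in KI and 20.4 ± 1.99% in WT, and Atp5g2 supplied 8.35 ± 0.826% in KI and 8.49 ± 1.13% in WT (SD, n = 4 each). Their log2 fold changes were -0.04, 0.16 and -0.01 for Atp5g3, Atp5g1 and Atp5g2, and the shares of each gene overlapped between the groups.

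Averaged over its members, only complex II separated the groups library by library with every tested gene counted. The mean of log2(CPM + 0.5) over the complex II genes, centred on the 8 libraries, was 0.01, 0.12, 0.08 and 0.01 in KI mice 513, 526, 528 and 549 and -0.02, -0.02, -0.11 and -0.08 in WT mice 503, 504, 506 and 527. The complex III mean was 0.01, 0.05, 0.06 and 0.10 in KI and 0.03, -0.07, -0.13 and -0.05 in WT, with WT 503 inside the KI range. The complex IV mean was 0.06, 0.06, 0.06 and 0.02 in KI and 0.13, -0.05, -0.14 and -0.14 in WT, where WT 503 was the highest of all. The complex V mean was -0.05, 0.09, 0.04 and 0.11 in KI and -0.05, -0.05, -0.04 and -0.04 in WT, where KI 513 lay with the WT libraries.

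The difference of the means, KI minus WT, was therefore alike in size, 0.12 for complex II, 0.11 for complex III, 0.10 for complex IV and 0.09 for complex V, against within-group SDs of 0.05, 0.05, 0.09 and 0.05 on the same log2 scale. In complex IV the high WT 503 value came with the low genes: over the 12 genes of at least 5 CPM, a limit set after seeing the data, WT 503 was at 0.02 and the KI libraries ran from 0.04 to 0.10, so the groups no longer overlapped. The same limit over all complexes left 41 genes, with a difference of 0.11 against a within-group SD of 0.04. Every KI library then lay above every WT library, but only just, with KI 513 at 0.0047 and WT 503 at -0.0049. Differences between the complexes were not tested.

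**Figure D3:**
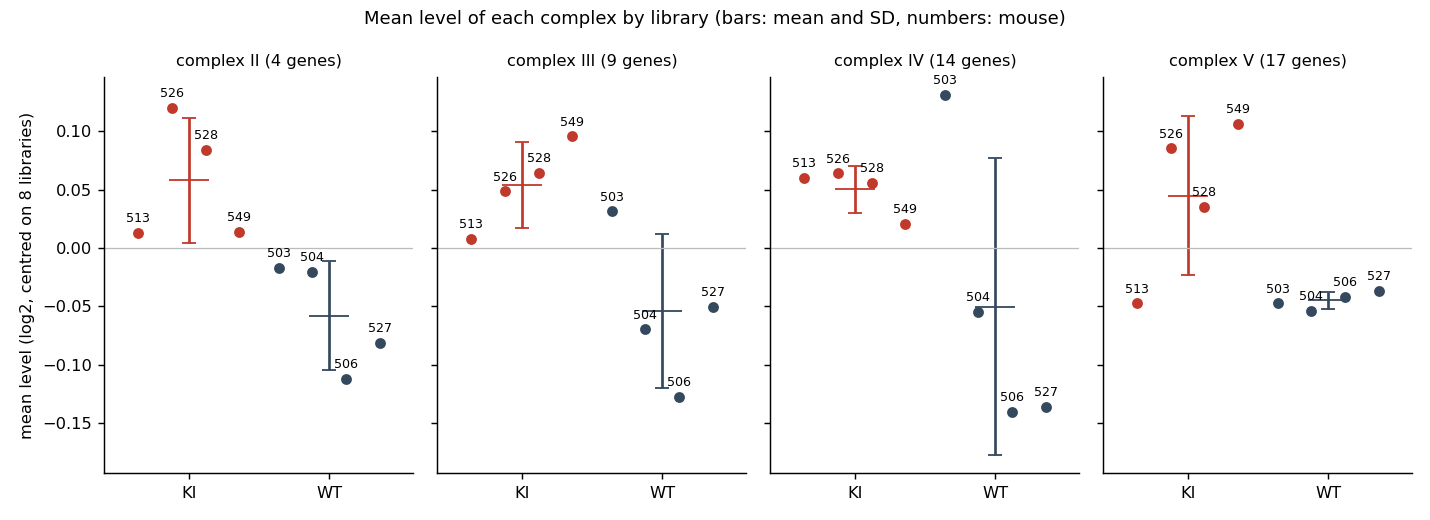
Mean level of each complex by library (log2 scale, each gene centred on the 8 libraries, y axis), KI left and WT right, with mouse numbers beside the points and the mean and SD of 4 libraries as bars. Complex II separates the groups; WT 503 overlaps KI in complexes III and IV, and KI 513 overlaps WT in complex V.

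The genes of a complex were not present at equal levels, although the proteins of complexes II, III and IV stand in it at equal numbers. Per kilobase of exon, complex II had the highest median, 98.9 CPM per kb over 4 genes, followed by complex III at 54.0, complex IV at 27.1 and complex V at 18.9 (means over 8 libraries). Sdhb led complex II at 124 ± 9.70 CPM per kb in KI and 110 ± 8.29 in WT, beside Sdhd at 125 ± 7.45 in KI and 107 ± 6.69 in WT, which does not differ from Sdhb beyond the spread. Sdhc was the lowest of complex II, at 16.9 ± 0.530 CPM per kb in KI and 16.6 ± 1.03 in WT. Complex III was more even, from Uqcrq at 42.3 ± 2.89 CPM per kb in KI and 38.3 ± 3.54 in WT to Uqcrc1 at 126 ± 4.42 in KI and 111 ± 2.25 in WT.

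In complex IV, Cox6b1 led at 127 ± 8.73 CPM per kb in KI and 114 ± 12.3 in WT, and Cox7a2l (120 ± 8.25 in KI, 109 ± 7.27 in WT) and Cox6a1 (114 ± 4.99 in KI, 114 ± 5.39 in WT) lay within its spread or close to it. After Cox4i1 and Cox8a came a step down to Cox7a2 at 41.2 ± 2.67 CPM per kb in KI and 40.7 ± 2.82 in WT. Complex V was led by Atp5c1 at 88.1 ± 4.29 CPM per kb in KI and 83.0 ± 6.66 in WT, and Atp5l was the lowest at 1.62 ± 0.490 in KI and 1.47 ± 0.532 in WT (SD, n = 4 each). The level per length takes the summed exons of all annotated transcripts, so a gene whose annotation includes long, little-used exons, as 6443 bases for Atp5l, reads low on this scale.

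**Figure D4:**
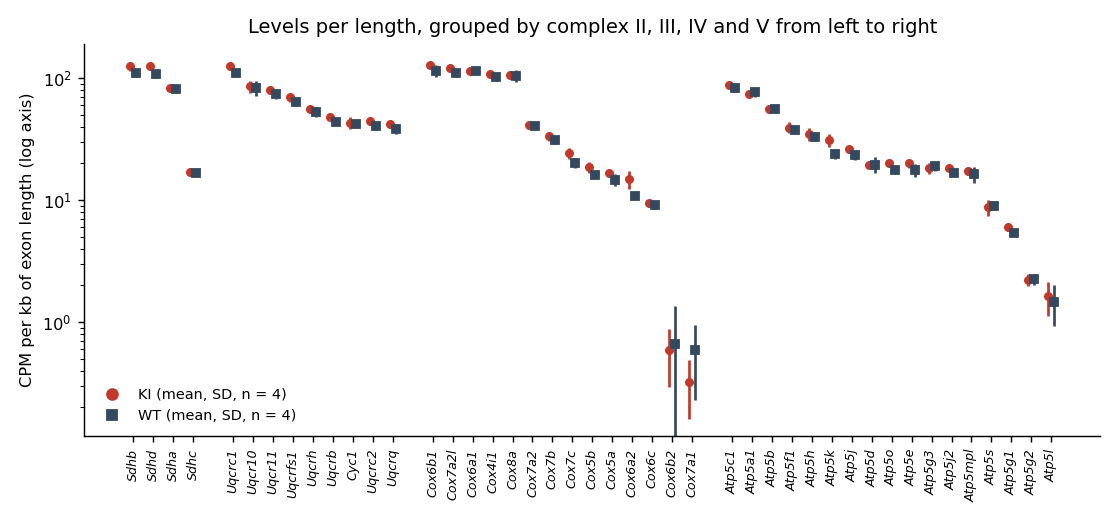
CPM per kilobase of summed exon length (log axis) of each tested subunit gene, ordered by level within complexes II, III, IV and V from left to right, with KI circles left of WT squares and the SD of 4 libraries as bars. Levels range from 127 (Cox6b1, KI) to below 1 (Cox6b2, Cox7a1), and the KI and WT symbols nearly coincide for most genes; the SD bar of Cox6b2 in WT runs below the axis.

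Many of these genes have processed copies elsewhere in the genome, and reads can be split between a gene and its copies. By alignment of annotated transcripts (at least 95% identity over at least 150 bases), 16 of the 44 tested members had near-identical copies, and for 10 the copies held at least 20% as many reads as the member. The copies of Atp5g1, led by Gm10039, held 189% of its reads, and those of Atp5l, led by Gm10221, held 205%. The copies of Cox7c held 99.7%, of Atp5h 64.3%, of Uqcrb 57.4%, of Uqcr10 41.6% and of Atp5o 36.4%, so the levels of these genes are uncertain. None of Sdhd, Sdhb, Uqcrc1 and Cox6a2 had such a copy, and that of Atp5k held 1.91% of its reads.

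With the reads of the copies added to their members, a setting added after seeing the data, 8 members instead of 5 had an unadjusted p under 0.05. The added ones were Atp5g1 (log2 fold change 0.23), Cox7c (0.25) and Atp5o (0.22), and 0 were called after adjustment by edgeR. The median log2 fold change of the 16 members with copies was 0.12, with 15 above 0, and that of the 28 without was 0.08, with 22 above 0. Exons also overlapped other genes for 12 tested members, the most for Atp5o, where 47.9% of the exon bases are shared, in part with the second model of the same name.

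**Figure D5:**
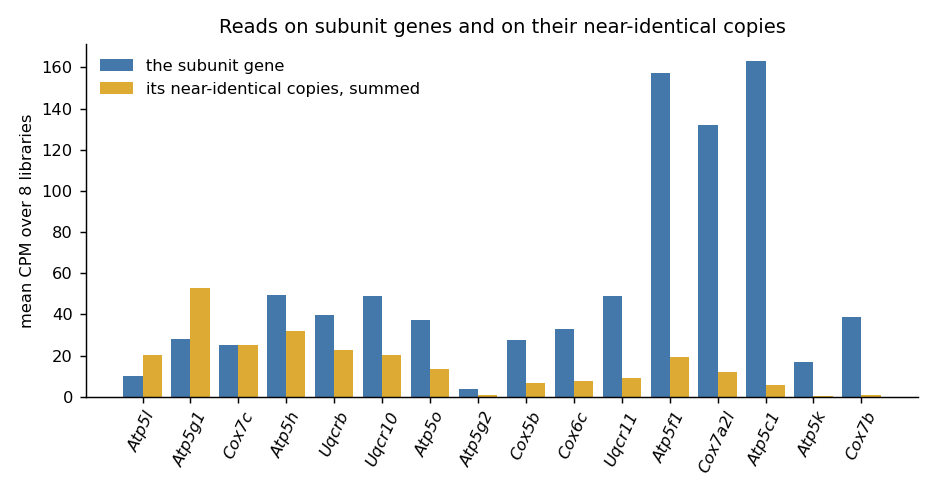
Mean CPM over the 8 libraries of the 16 tested subunit genes with near-identical copies (blue) and of their copies summed (yellow), ordered by the ratio of the second to the first. The copies exceed the gene for Atp5l and Atp5g1 and equal it for Cox7c, and are close to 0 for Atp5k and Cox7b.

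Genes that work with complexes II to V were counted in the same way, and the lists were not tested against each other. A set of 37 genes with Nduf symbols, Ndufa4 among them, stood for complex I, which feeds electrons from NADH into the chain. The set was not checked against the subunits of the purified complex. Of its genes, 34 had log2 fold changes above 0 with a median of 0.13, and 5 passed an unadjusted p under 0.05, all higher in KI. Of the 32 tested assembly factors of complexes II to V, 23 were above 0 with a median of 0.12, and 1 passed, Coa3, a complex IV assembly factor, at 137 ± 5.53 CPM in KI and 115 ± 11.8 CPM in WT. Of 14 tested electron carriers, nucleotide exchangers and coupling genes, 9 were above 0 with a median of 0.04, and an unadjusted p under 0.05 was reached by 2 with higher and 1 with lower values in KI. The ADP/ATP carrier Slc25a5 was at 1094 ± 63.1 CPM in KI and 986 ± 44.6 CPM in WT (unadjusted p = 0.0259), with no overlap of the groups. Letm1, a gene of the inner membrane, was at 43.6 ± 13.5 CPM in KI and 62.9 ± 4.28 CPM in WT, a log2 fold change of -0.53 (SD, n = 4 each; unadjusted p = 0.0211, edgeR adjusted p = 0.592). No gene of these lists was called by the edgeR quasi-likelihood test; DESeq2 called 1 complex I gene, Ndufa5, at 25.4 ± 0.469 CPM in KI and 21.6 ± 0.938 CPM in WT (DESeq2 adjusted p = 0.0464).

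Of the 18 citric acid cycle and pyruvate dehydrogenase genes, which supply the electrons, 10 were above 0, with a median of 0.02. Ogdh, of the oxoglutarate dehydrogenase complex, averaged 87.9 ± 14.8 CPM in KI and 117 ± 20.7 CPM in WT, a log2 fold change of -0.41 (SD, n = 4 each; edgeR adjusted p = 0.585).

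Among 17 tested regulators of mitochondrial genes, 12 were above 0 with a median of 0.11. An unadjusted p under 0.05 was reached by 2 with higher values in KI (Tfam and Mterf1a) and 1 with lower values (Polrmt). Of the factors whose letters were sought above, Nrf1 averaged 57.6 ± 5.13 CPM in KI and 69.9 ± 13.3 CPM in WT. Its log2 fold change was -0.28 (edgeR unadjusted p = 0.0629). Gabpa and Yy1 had log2 fold changes of -0.16 and 0.05 (edgeR unadjusted p = 0.320 and 0.778). Esrra, an oestrogen-related receptor, was low, at 2.26 ± 0.786 CPM in KI and 3.10 ± 0.488 CPM in WT. Its log2 fold change was -0.46 (edgeR unadjusted p = 0.191, adjusted p = 0.805). The groups overlapped for Gabpa, Yy1 and Esrra. Tfam, which packages mitochondrial DNA and helps to start its transcription, averaged 41.3 ± 1.83 CPM in KI and 31.6 ± 4.49 CPM in WT. Its log2 fold change was 0.38 with no overlap of the groups (unadjusted p = 0.0083, edgeR adjusted p = 0.533). Polrmt, the mitochondrial RNA polymerase, averaged 3.85 ± 1.59 CPM in KI and 6.74 ± 2.40 CPM in WT, a log2 fold change of -0.81 (SD, n = 4 each; unadjusted p = 0.0458, edgeR adjusted p = 0.634).

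The subunit genes are short. The median exon length was 1716 bases over the 44 tested members and 3392 bases over all genes tested, with a GC content of 49.8% against 48.9%. With the trends of the counts on GC content and length removed, the median log2 fold change of the members was 0.10, against 0.02 over all genes, and 7 members passed an unadjusted p under 0.05, against 7.04% of all genes. The values of Uqcrc1, Sdhd and Cyc1 under that setting were 0.33, 0.17 and 0.18, and Cyc1 passed there (unadjusted p = 0.0391) and not without the correction.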

How the data were processed

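Microglia sorted from the spinal cords of 4 KI and 4 WT female mice were sequenced, 1 library per mouse, with RNeasy Plus Mini purification and the NEBNext Low Input chemistry, per the labels. The deposited counts were made by featureCounts 2.0.3 over exons summed by gene, with paired-end input, primary alignments and no strand option, per the file headers. Of the counts from 1 to 9, 68.9% to 70.8% in each library were even, so mates were mostly counted as separate reads. The floor of 3 reads treats reads as independent and does not allow for this. STAR 2.7.5c, SAMtools 1.9, R 3.6.0, edgeR, limma and mm10 are named in the submitters' processing notes. The FPKM values deposited by the authors served only for an alternative (log2 of FPKM plus 1 or 0.1). The table holds 8 count columns that match no label, not used here. The exon length in bases is that of the deposited table, per the file headers.

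Counts were tested with edgeR 4.0.16 in R 4.3.3 (TMM, filterByExpr with minimum count 10 and minimum total 15, robust quasi-likelihood test, group as the only term), with Benjamini-Hochberg adjustment over all 17291 genes and a threshold of 0.05; DESeq2 1.42.0 and limma 3.58.1 were alternatives. The test was tested on simulated data of 16675 genes. Intervals are at the 95% level and, since no molecular identifiers mark the reads, floors cover counting error only. Genes were paired with GENCODE M21 by identifier (54495 of 54532); the release behind the deposited table is not stated. Named members were, per complex, up to 5 with the smallest unadjusted p, the most abundant per length, any called by a tool and all with a partner isoform; the others for which values are given were named after their values were seen. The members and the gene lists were chosen with earlier results of these data known. Promoter sequences are RefSeq's on GRCm38.p6.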

Additional observations from a re-analysis of the deposited data

Results flagged for a closer look

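In 68 groups of 4 libraries examined (the levels of the 29 named members and the mean levels of the complexes, in KI and in WT), 2 held a library far from the others by Dixon's criterion, and chance flags about 1 in 20 groups. The Cox7a1 level in KI mouse 513 was 0.0447 CPM, below the other KI libraries at 0.200 to 0.226 CPM. The Uqcrc2 level in WT mouse 527 was 114 CPM, above the other WT libraries at 99.0 to 101 CPM.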

How the results depend on the processing

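Over 20 alternatives, 8 of which left out 1 library each, all 100 medians of the members and of the 4 complexes stayed above 0. Leaving out a library gave medians of 0.08 to 0.13 for the members, 0.08 to 0.14 for complex II, 0.09 to 0.14 for complex III, 0.04 to 0.15 for complex IV and 0.06 to 0.12 for complex V. The members called numbered 1 under DESeq2 and 0 otherwise, and those at an unadjusted p under 0.05 numbered 9 under DESeq2, 8 with copies' reads added and 2 to 7 without a library; Sdhd and Uqcrc1 were among them every time. Uqcrc1 was at 0.19 under DESeq2. No paired analysis was possible because the mouse numbers of the groups do not overlap.

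Of 579 log2 fold changes of 29 named genes under alternatives, 27 turned sign, in 8 genes. Cox6a1 was at -0.011 with total counts only, -0.0019 with no filter on low counts, -0.00091 under DESeq2, -0.0080 and -0.0081 with limma on FPKM plus 1 and 0.1, and -0.0025 with counts halved. Cox6b2 was at 0.27 under limma-voom and 0.20 with FPKM plus 0.1. With GC and length trends removed, Atp5g2 was at 0.064, Cox7a2 at -0.081, Cox7b at -0.027 and Uqcrb at -0.020. Without a library, Cox6a1 ran from -0.030 to 0.020, Cox6b2 from -0.58 to 0.86, Cox8a from -0.028 to 0.10, Cox7a2 from -0.019 to 0.061, Atp5g3 from -0.11 to 0.0046 and Atp5g2 from -0.072 to 0.039. The cause was not tested. Depth limits Cox7a1, Cox6b2, Cox4i2, Cox7b2, Cox8b and Cox8c, which had at most 154 reads in either group.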
